A study of Mus musculus with 6 samples.

Results

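The 6 genes described here are transcription regulators tied to the brown adipocyte lineage: Zic1, Lhx8, Ebf1, Ebf2, Ebf3 and Prdm16. They were chosen by symbol from a table of 20295 genes, and all 6 were found. Earlier results of these data were known when these genes and the lists below were chosen. The shares of them called therefore only describe these data. Zic1 is a zinc finger factor and Lhx8 a LIM homeodomain factor, and both are used as markers of cells from classical brown fat. The early B cell factors Ebf1, Ebf2 and Ebf3 bind DNA through a shared domain. Ebf2 is known as a selective marker and regulator of brown preadipocytes, whereas Ebf1 acts in adipogenesis of white and brown fat alike. Prdm16 is a zinc finger coregulator that binds Cebpb, Ppara, Ppargc1a, Ctbp proteins and the methyltransferase Ehmt1 and maintains the thermogenic gene programme.

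The adipocytes were differentiated in vitro from stromal-vascular fractions (cells that collagenase type II frees from fat, without mature adipocytes) of male NMRI mice aged 4 to 5 weeks. The groups were epididymal white adipose tissue (eWAT), the inguinal white depot (iWAT) and brown adipose tissue (BAT), the last pooled from interscapular, cervical and axillary pads, with 2 RNA-seq libraries each. All cultures had the same medium, with newborn calf serum at 10%, insulin at 30 nM and, at 1 µM, rosiglitazone, an agonist of the adipogenic receptor Pparg. Cells were harvested 8 days after plating, although the table's columns are tagged D7, and cultures were used if more than 50% of cells had differentiated. Separate cultures or mice behind the 2 libraries of a depot are not stated, so a p-value reflects no more than the spread among these libraries, which could be technical.

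Library totals ran from 2889038 to 4807449 counts, at which 3 counts, the limit that a count of 0 allows, equal 0.634 to 1.15 CPM (counts scaled to a common library total, with trimmed-mean, or TMM, factors). All 8 adipocyte markers were detected in every library, with a summed level of 24777 to 43156 CPM, and 0 of 8 were called in any contrast without the block by replicate number (a term that takes up what same-numbered libraries share), which calls Pparg higher in BAT in both of its contrasts. The 8 macrophage markers summed to 91.8 and 419 CPM in BAT, 182 and 626 CPM in iWAT, and 2039 and 4607 CPM in eWAT. All 8 stood lower in BAT than in eWAT, and 6 of 8 were called lower, beside 3.75% of tested genes. With the block all 8 were called lower in BAT and in iWAT than in eWAT, beside 12.8% and 3.14% of tested genes. It called 1 lower in BAT than in iWAT, beside 5.89%. The 6 preadipocyte markers summed to 284 and 406 CPM in BAT, 1740 and 1771 CPM in iWAT, and 1128 and 1177 CPM in eWAT. Pdgfra made up most of each sum, at a mean of 264 CPM in BAT, 1459 CPM in iWAT and 954 CPM in eWAT. Dlk1 had at most 3 counts in a library and was not tested. Of the 5 tested, 2 (Pdgfra and Ly6a) were called lower in BAT in each of its contrasts, beside 3.75% (eWAT) and 0.895% (iWAT) of tested genes. With the block 4 were called lower against eWAT and 3 against iWAT, beside 12.8% and 5.89%. Endothelial markers summed to 48.2 to 169 CPM, skeletal muscle markers to 10.8 to 22.4 CPM, mesothelial markers to 13.1 to 50.9 CPM, neuron markers to at most 6.97 CPM and B cell markers to at most 0.932 CPM. The 4 Schwann cell markers summed to 24.3 and 46.3 CPM in BAT and to 2.33 to 15.3 CPM in the white depots. S100b made up nearly all of that sum in BAT, where Sox10 was at 0 counts in both libraries. Between BAT and eWAT, 1 of 2 tested Schwann cell markers (S100b) was called higher in BAT, beside 2.71% of tested genes. Of 3 tested mesothelial and 3 tested skeletal muscle markers, 1 each was called lower, beside 3.75%. The block added 1 muscle marker higher in BAT than in eWAT (10.9%) and 1 mesothelial marker lower in BAT than in iWAT (5.89%). With it S100b was also called higher in BAT than in iWAT (4.55%) and in iWAT than in eWAT (1.66%). The part of these cells in the results below was not tested. In bulk RNA, fewer cells of a type and less RNA per cell cannot be told apart.

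The promoter windows of Zic1, Lhx8, Ebf3 and Prdm16 are shown because these 4 genes had the lowest counts of the 6 in eWAT, and because the windows differ widely in their CpG content. Each window runs from 250 bases before to 50 after the start in RefSeq's GRCm38.p6 annotation, 5′ to 3′ on the gene's strand, which is the minus strand for all 4. Capitals mark CpG dinucleotides. The windows are chr9:91365719-91366018 for Zic1, chr3:154330511-154330810 for Lhx8, chr7:137314396-137314695 for Ebf3 and chr4:154636824-154637123 for Prdm16.
Zic1: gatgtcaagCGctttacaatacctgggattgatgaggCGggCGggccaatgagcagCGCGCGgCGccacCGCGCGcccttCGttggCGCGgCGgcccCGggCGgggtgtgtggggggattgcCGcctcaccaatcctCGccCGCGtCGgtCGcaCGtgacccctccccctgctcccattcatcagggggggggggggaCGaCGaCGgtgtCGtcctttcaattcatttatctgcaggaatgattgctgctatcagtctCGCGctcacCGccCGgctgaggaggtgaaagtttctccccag
Lhx8: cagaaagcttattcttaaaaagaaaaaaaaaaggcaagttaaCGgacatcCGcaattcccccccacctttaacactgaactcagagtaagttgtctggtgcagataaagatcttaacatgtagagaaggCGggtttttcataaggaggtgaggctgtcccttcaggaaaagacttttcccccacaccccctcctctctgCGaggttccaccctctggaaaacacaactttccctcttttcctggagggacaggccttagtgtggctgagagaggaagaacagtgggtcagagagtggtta
Ebf3: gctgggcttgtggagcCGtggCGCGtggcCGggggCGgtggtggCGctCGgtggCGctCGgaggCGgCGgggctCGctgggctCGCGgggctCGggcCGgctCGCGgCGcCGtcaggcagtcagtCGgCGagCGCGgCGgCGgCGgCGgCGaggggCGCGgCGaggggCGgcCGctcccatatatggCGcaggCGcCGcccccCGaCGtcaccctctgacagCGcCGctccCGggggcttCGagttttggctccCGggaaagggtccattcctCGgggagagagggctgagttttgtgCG
Prdm16: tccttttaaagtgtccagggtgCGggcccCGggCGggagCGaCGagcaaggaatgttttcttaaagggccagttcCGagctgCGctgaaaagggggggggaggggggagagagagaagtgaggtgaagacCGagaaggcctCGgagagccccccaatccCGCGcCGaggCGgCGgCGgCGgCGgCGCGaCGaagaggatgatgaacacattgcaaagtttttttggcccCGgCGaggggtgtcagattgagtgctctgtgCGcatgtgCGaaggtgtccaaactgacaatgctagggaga
The Zic1 window held 31 CpG dinucleotides, the Ebf3 window 46 and the Prdm16 window 24, against a median of 7 over all 32851 windows of the table. The Lhx8 window held 4, with a GC content of 47% against 65.3% for Zic1, 77% for Ebf3, 61% for Prdm16 and a median of 52.7% over all windows. Both windows listed for Ebf1 held 9 and 17 CpG dinucleotides. No window was listed for Ebf2, so the 6 windows searched leave that gene out. On both strands, the Ebf palindrome TCCCNNGGGA and the cyclic AMP response element TGACGTCA were in 0 of the 6 windows of these genes, against 0.904% and 1.79% of all windows. The E-box CANNTG, in 72.3% of all windows, had 1 match in the window of Zic1, 1 in that of Prdm16 and 2 in the second window of Ebf1, and 0 in those of Lhx8 and Ebf3. These matches only describe the letters of the windows.

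Zic1 and Lhx8, the markers of classical brown fat, were near or below the detection limit in eWAT and reached about 10 CPM in BAT. Zic1 (NM_009573, mm9 chr9:91255183-91260637, minus strand) had 32 and 27 counts in the BAT libraries, 2 and 1 in iWAT, and 0 and 0 in eWAT. In CPM, Zic1 stood at 6.76 and 10.3 in BAT, 0.481 and 0.251 in iWAT, and 0 in both eWAT libraries. Both BAT libraries lay above all 4 white libraries, and no white library exceeded its own limit of 3 counts. Against 3 counts over the depot, Zic1 was at least 20.9-fold higher in BAT than in eWAT (edgeR quasi-likelihood test, Benjamini-Hochberg adjusted p = 0.0237). Against the 3 counts in iWAT the BAT level was 21.8 times as high (exact 95% counting interval 7.10 to 109), which did not pass the test (adjusted p = 0.0633). With the replicate number as a block that contrast passed (edgeR adjusted p = 0.0127). No fold is given between iWAT and eWAT, since both are at or under 3 counts.

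Lhx8 (NM_010713, mm9 chr3:153969258-153993524, minus strand) had 45 and 29 counts in BAT, 12 and 13 in iWAT, and 1 and 0 in eWAT. These equal 9.51 and 11.1 CPM in BAT, 2.89 and 3.27 CPM in iWAT, and 0.233 and 0 CPM in eWAT. The depots did not overlap, with iWAT between the other two. The BAT level was 78.6 times that of eWAT (exact 95% counting interval 13.7 to 3148, set by the single eWAT count; edgeR adjusted p = 0.0167). BAT exceeded iWAT by 1.73 ± 0.45 (SE) on the log2 scale and iWAT was 24.0 times as high as eWAT (exact 95% counting interval 3.93 to 985), and neither passed (edgeR adjusted p = 0.149 and 0.136). Both passed with the replicate block (edgeR adjusted p = 0.0391 and 0.0321).

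**Figure D1:**
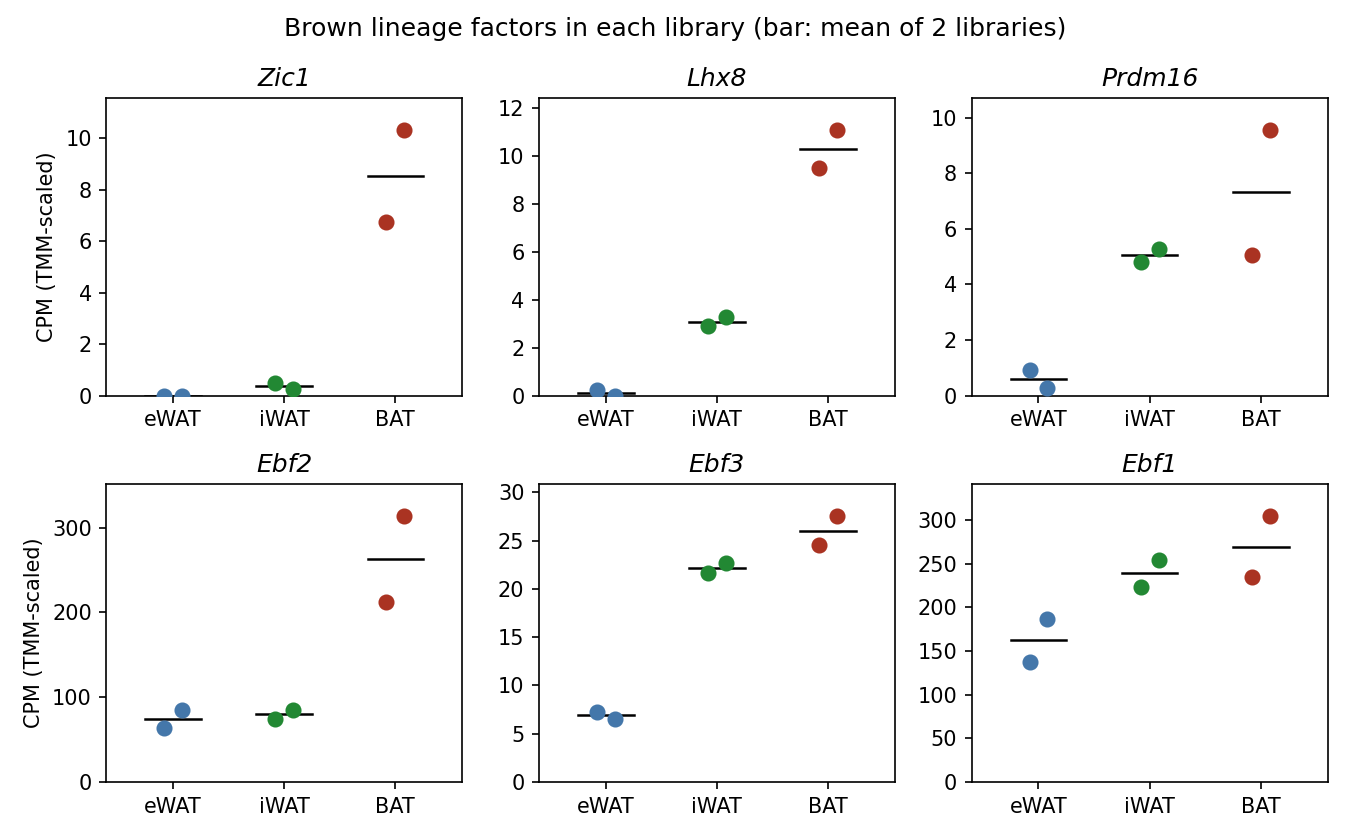
TMM-scaled CPM (vertical axes, linear from 0, a separate range for each gene) of the 6 genes in each library (points) of eWAT, iWAT and BAT, with bars at the mean of the 2 libraries. Zic1 is at 0 in both eWAT libraries and at most 0.481 in iWAT, Ebf2 in iWAT lies with eWAT, and Ebf3 and Prdm16 in iWAT lie near BAT.

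The 3 Ebf genes had different depot patterns. Ebf2 stood highest in BAT, Ebf3 in iWAT lay nearer to BAT than to eWAT, and Ebf1 was abundant in all 3 depots. Ebf2 (NM_001276387, mm9 chr14:67852129-68049789, plus strand) stood at 212.2 and 313.5 CPM in BAT, 74.8 and 85.2 CPM in iWAT, and 63.8 and 84.8 CPM in eWAT. The BAT libraries lay above the other 4, and the iWAT and eWAT libraries overlapped. Ebf2 was higher in BAT than in eWAT by 1.82 ± 0.26 (SE, log2; edgeR adjusted p = 0.0236) and than in iWAT by 1.71 ± 0.26 (edgeR adjusted p = 0.0479). Between iWAT and eWAT the log2 difference was 0.11 with a 95% interval from -0.50 to 0.72 (edgeR adjusted p = 0.994), and it was -0.082 without eWAT replicate 1. The call against iWAT was lost when any 1 of the 6 libraries was left out, and its log2 difference then ran from 1.41 to 1.97.

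Ebf3 (NM_001113414, mm9 chr7:144385354-144506128, minus strand) had 116 and 72 counts in BAT, 90 and 90 in iWAT, and 31 and 23 in eWAT. Its level was 24.5 and 27.5 CPM in BAT, 21.6 and 22.6 CPM in iWAT, and 7.22 and 6.54 CPM in eWAT. The iWAT libraries lay just below those of BAT and far above those of eWAT, with no overlap. Ebf3 was higher in BAT than in eWAT by 1.91 ± 0.24 (SE, log2; edgeR adjusted p = 0.0203). From iWAT it differed by 0.23 with a 95% interval from -0.30 to 0.76, which did not pass (edgeR adjusted p = 0.654). The iWAT level exceeded that of eWAT by 1.68 ± 0.24 on the log2 scale, short of the threshold without the block (edgeR adjusted p = 0.0968) and past it with the replicate block (0.00944) and in DESeq2.

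Ebf1 (NM_007897, mm9 chr11:44431602-44821598, plus strand) had the highest mean of the 3 in each depot, with 234.6 and 304.4 CPM in BAT, 223.5 and 254.4 CPM in iWAT, and 137.4 and 186.9 CPM in eWAT. The BAT and iWAT libraries overlapped, and both depots lay above eWAT. In 1 BAT library the CPM of Ebf2 was higher than that of Ebf1. Per kilobase of the counted transcript, Ebf1 was higher in both BAT libraries. The BAT excess over eWAT was 0.73 ± 0.23 (SE, log2; 95% interval 0.18 to 1.29), which did not pass the test (edgeR adjusted p = 0.110) but passed with the replicate block (0.0100). BAT and iWAT differed by 0.17 (95% interval -0.38 to 0.72; edgeR adjusted p = 0.758), and iWAT and eWAT by 0.56 ± 0.23 (adjusted p = 0.525).

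Because the Ebf genes differ in length, their make-up was compared as CPM per kilobase of the counted transcript, which is 5203 bases for Ebf1, 5532 for Ebf2 and 4996 for Ebf3. Ebf2 made up 43.4% and 47.0% of the summed Ebf1 to Ebf3 level in BAT, 22.2% and 22.4% in iWAT, and 29.3% and 29.2% in eWAT. The Ebf2 level per kilobase was 0.851 and 0.969 of that of Ebf1 in BAT, 0.437 and 0.427 in eWAT, and 0.315 in both iWAT libraries. So the depot order of this ratio was BAT, eWAT, iWAT, and no 2 depots overlapped. With 2 libraries against 2, an exact permutation test (two-sided) cannot go below 0.333, and each of the 3 pairs of depots gave 0.333. Ebf3 made up 5.55% and 4.57% in BAT, 7.13% and 6.58% in iWAT, and 3.67% and 2.49% in eWAT. The ratio of Ebf3 to Ebf2 per kilobase was 0.320 and 0.294 in iWAT, above the 0.0855 to 0.128 of the other 4 libraries. The summed level was 88.3 and 120.7 CPM per kilobase in BAT, 60.8 and 68.8 in iWAT, and 39.4 and 52.5 in eWAT. In each depot replicate 2 had the lower macrophage sum and the higher Ebf sum. Same-numbered libraries deviated together across genes, so the depots are not separate instances of this. Whether the cells present set it was not tested.

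**Figure D2:**
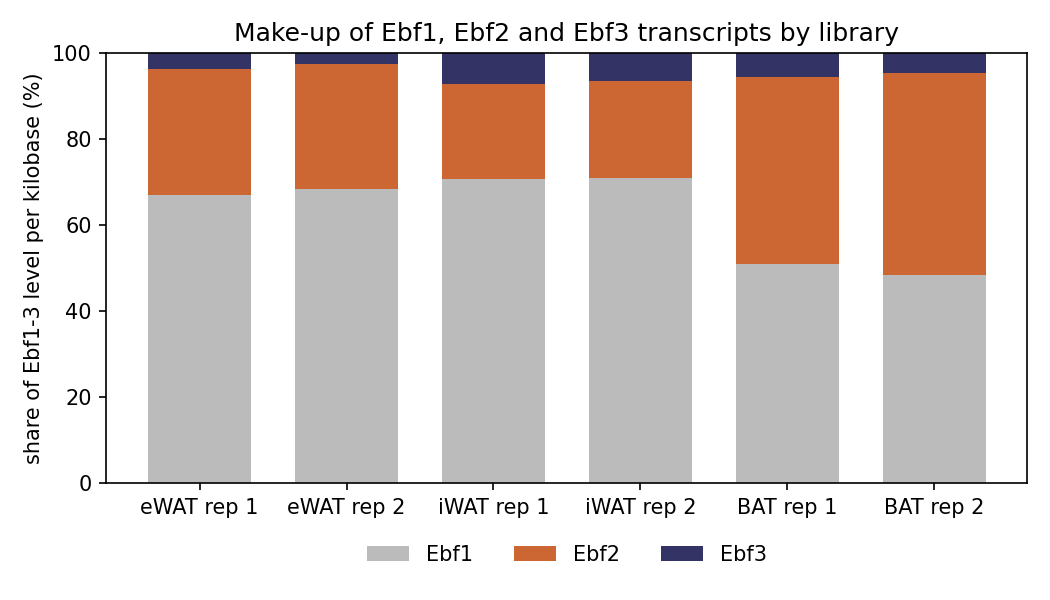
Share (vertical axis, %) of Ebf1, Ebf2 and Ebf3 in their summed level per kilobase, as stacked bars for each of the 6 libraries. The Ebf2 segment is 43.4% and 47.0% in BAT, 22.2% and 22.4% in iWAT, and 29.2% and 29.3% in eWAT, and the Ebf3 segment is tallest in iWAT.

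Prdm16, the coregulator of the brown programme, was the lowest of the 6 genes per kilobase in BAT. Prdm16 (NM_001177995, mm9 chr4:153690234-154010982, minus strand) had 24 and 25 counts in BAT, 20 and 21 in iWAT, and 4 and 1 in eWAT. Its level was 5.07 and 9.56 CPM in BAT, 4.81 and 5.28 CPM in iWAT, and 0.932 and 0.284 CPM in eWAT. The BAT and iWAT libraries overlapped, and all 4 lay above both eWAT libraries. Prdm16 was higher in BAT than in eWAT by 3.43 ± 0.65 (SE, log2; edgeR adjusted p = 0.0373). Its log2 difference from iWAT was 0.50 with a 95% interval from -0.71 to 1.71 (edgeR adjusted p = 0.670). The iWAT level exceeded eWAT by 2.93 ± 0.65 on the log2 scale, which did not pass (edgeR adjusted p = 0.181).

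The order of mean levels per kilobase in BAT was Ebf1 (51.8 CPM per kilobase), Ebf2 (47.5), Lhx8 and Ebf3 (5.21 each), Zic1 (2.55) and Prdm16 (0.867). Ebf1 and Ebf2 overlapped there, as did Lhx8 and Ebf3. In iWAT the order was Ebf1 (45.9), Ebf2 (14.5), Ebf3 (4.43), Lhx8 (1.56), Prdm16 (0.598) and Zic1 (0.109), with no overlap between neighbours. In eWAT Ebf1 (31.2), Ebf2 (13.4) and Ebf3 (1.38) stood apart, and Prdm16 (0.0721), Lhx8 (0.0589) and Zic1 (0) could not be ordered.

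Read by contrast, 5 of the 6 genes were called higher in BAT than in eWAT (all but Ebf1), beside 2.71% of the 11732 tested genes. All 6 passed the filter on low counts, Zic1 through its BAT libraries alone and Lhx8 and Prdm16 through BAT and iWAT. The median log2 difference of the 6 was 2.67, with Zic1 at its bound, against -0.03 over all tested genes. Libraries did not overlap, with BAT higher, for 6 of 6 genes, as for 26.8% of tested genes. No gene of the set was called when BAT replicate 2, eWAT replicate 1 or eWAT replicate 2 was left out, 2 were without iWAT replicate 1 (Lhx8 and Ebf3) and 1 without iWAT replicate 2 (Lhx8). The log2 differences themselves stayed above 0 for all 6 genes in each fit without 1 library, and 5 were called without BAT replicate 1. That of Prdm16 ran from 2.90 without eWAT replicate 2 to 4.50 without eWAT replicate 1, and without the latter Lhx8 had 0 counts in eWAT. With the replicate block 6 of 6 were called, beside 10.9% of tested genes, and DESeq2 and a fit with no filter called 5 each, beside 5.11% and 4.34%. The limma voom fit called 4 (all but Ebf1 and Prdm16), beside 2.06%.

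BAT was called higher than iWAT for 1 of the 6 genes, Ebf2, beside 0.145% of tested genes. The fitted difference was above 0 for all 6. BAT and iWAT libraries did not overlap for 4 of 6 (Zic1, Lhx8, Ebf2 and Ebf3), as for 23.9% of tested genes. The replicate block called 3 (Zic1, Lhx8 and Ebf2), beside 4.55% of tested genes, DESeq2 2 (Zic1 and Ebf2), beside 1.53%, the fit with no filter 2, beside 1.41%, and limma voom 0, beside 0.0597%. The median log2 difference was 1.11, against -0.02 over all tested genes. Leaving out any 1 library left 0 called. The contrasts of BAT with eWAT and with iWAT share the BAT libraries, so their values stand side by side and are not independent.

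Between iWAT and eWAT, 0 of the 6 genes were called by edgeR, as was 0% of all tested genes, although 1096 genes (9.34%) and 4 of the 6 had an unadjusted p below 0.05. DESeq2 called 1 of the 6 (Ebf3), beside 0.963% of tested genes called higher, and limma voom called 0, beside 0.00852%. The replicate block called 2 (Lhx8 and Ebf3), beside 1.66%, and the fit with no filter 3, beside 1.15%. The iWAT libraries lay above those of eWAT without overlap for 5 of 6 genes (all but Ebf2), as for 19.2% of tested genes. The median log2 difference of the 5 genes with a usable value was 1.68, against 0.01 over all tested genes. The authors' deposited table listed 6, 3 and 4 of the 6 as higher at an adjusted p below 0.05 for BAT over eWAT, BAT over iWAT and iWAT over eWAT, beside 6.58%, 2.91% and 3.25% of its 20295 genes. Its 4 genes for the last contrast were Lhx8, Ebf1, Ebf3 and Prdm16.

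**Figure D3:**
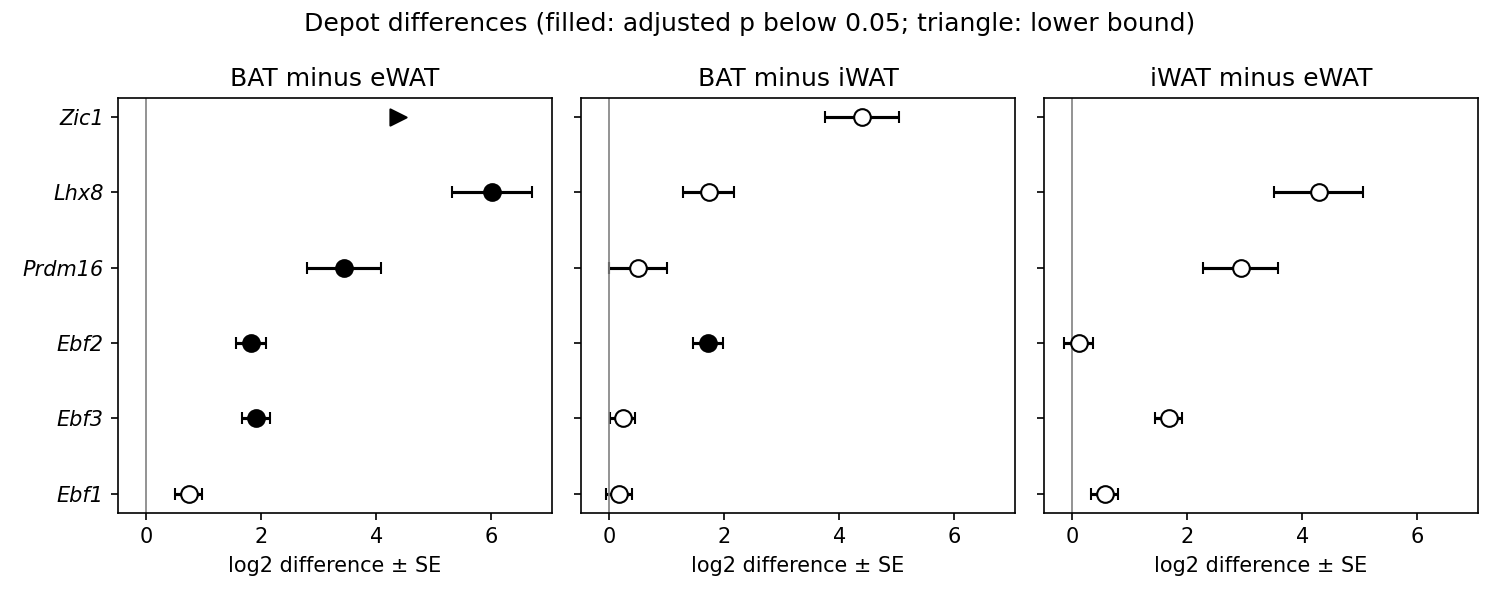
Fitted log2 differences (horizontal axes) of the 6 genes in the 3 contrasts, as points with SE bars, filled where the edgeR adjusted p was below 0.05. The triangle for Zic1 is the lower bound against 3 counts over eWAT, Zic1 has no point between iWAT and eWAT, and the fitted values of Lhx8 against eWAT rest on 1 count there. Filled points are 5 against eWAT with the triangle and 1 (Ebf2) against iWAT.

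Most paralogues of these factors were near the detection limit. Of 30 listed Zic, Lhx, Islet, Lmx, Ebf and Prdm genes, 6 passed the filter on low counts, and 0 of 6 were called in any contrast without the replicate block, with 2 of the 30 at 0 counts throughout. Their median log2 difference was -0.18 between BAT and eWAT and -0.09 between BAT and iWAT. Prdm9, a meiotic histone methyltransferase, had the lowest adjusted p of them between BAT and eWAT, at 17.0 ± 1.92 CPM (SD, n = 2) in BAT and 7.42 ± 3.58 CPM in eWAT, and did not pass (edgeR adjusted p = 0.118). With the replicate block it was the 1 of 6 that passed (edgeR adjusted p = 0.0336). Below the filter, only Prdm1, Prdm11 and Zic4 had a depot mean of at least 1 CPM.

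Of the genes beside the factors on their chromosomes, 8 could be tested, and 0 of 8 were called in any contrast without the replicate block. Zic4, which lies 3172 bases from Zic1 on the opposite strand, had 6 and 3 counts in BAT, 0 in both eWAT libraries, and 0 and 1 in iWAT, too few to be tested. It is the neighbour of Zic1 on one side, with Tbc1d2b, a Rab GTPase-activating protein, on the other at 87.2 ± 39.5 CPM in BAT and 202.6 ± 1.15 CPM in eWAT (SD, n = 2; edgeR adjusted p = 0.0690). With the block Tbc1d2b in BAT was below eWAT and iWAT (edgeR adjusted p = 0.0101 and 0.0197), and it was the only neighbour called. Rnf145 and Clint1 beside Ebf1, Ppp2r2a and Cdca2 beside Ebf2, Mgmt and 9430038I01Rik beside Ebf3, and Tyw3 beside Lhx8 were the others that passed the filter. Slc44a5 beside Lhx8, and Arhgef16 and Actrt2 beside Prdm16, had at most 1 count in a library. Gm6878, a predicted gene on the strand opposite Ebf2, had from 1 to 4 counts in a library. The GENCODE annotation of release M21 places genes on the opposite strand within the spans, introns included, of all of the factors except Lhx8. Whether they overlap the counted transcripts was not checked. The sources used here do not say that counting used strand, so reads from any shared stretch cannot be told from those of the factors.

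The partners and modulators of these factors passed the test between BAT and eWAT about as often as tested genes at large. Of 32 listed genes, 30 were tested. BAT was called higher than eWAT for 1 and lower for 1, beside 2.71% and 3.75% of tested genes, with a median log2 difference of 0.12. With the replicate block the counts were 4 higher and 2 lower, beside 10.9% and 12.8%. Ppara, a receptor for fatty acids that binds Prdm16, rose by 2.24 ± 0.44 (SE, log2; edgeR adjusted p = 0.0414), from 136 ± 75.0 CPM in eWAT to 646 ± 196 CPM in BAT (SD, n = 2). Nrip1, a corepressor of brown genes, fell by 1.41 ± 0.30 on the log2 scale (edgeR adjusted p = 0.0464). Pparg, the receptor that rosiglitazone activates, was at 463 CPM in BAT and 216 CPM in eWAT and Ehmt2, a histone methyltransferase, at 72.3 and 118 CPM, and neither passed without the block (edgeR adjusted p = 0.0689 and 0.0541) while both passed with it (0.00347 and 0.0109). In the unblocked fit no partner was called in the other contrasts. Between BAT and iWAT the block called 3 higher (Pparg, Ppara and the coactivator Ppargc1a) and 3 lower (Zfp516, Nrip1 and Twist1), beside 4.55% and 5.89%, and between iWAT and eWAT 2 higher (Irf4 and Twist1) and 0 lower, beside 1.66% and 3.14%. DESeq2 and the fit with no filter each called 1 higher and 2 lower between BAT and iWAT. The shares of all tested genes were 1.53% and 2.82% in DESeq2, and 1.41% and 3% with no filter. Ppara remained called in 1 of the 6 fits that leave out a library (without BAT replicate 1) and Nrip1 in 0.

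The output genes of brown adipocytes followed the order of BAT over eWAT. Of 20 listed genes 18 were tested. BAT was called higher than eWAT for 10 and lower for 1, beside 2.71% and 3.75% of tested genes, with a median log2 difference of 2.02. Ucp1, the uncoupling protein of thermogenesis, stood at 7109 ± 3090 CPM in BAT, 1055 ± 84.5 CPM in iWAT and 61.2 ± 2.28 CPM in eWAT (SD, n = 2). It was higher in BAT than in eWAT by 6.86 ± 0.43 and than in iWAT by 2.75 ± 0.36 (SE, log2; edgeR adjusted p = 0.00657 and 0.0314). Cidea, a lipid droplet protein, Cox7a1, a subunit of cytochrome oxidase, and Fabp3, a fatty acid carrier, rose by 7.79 ± 0.90, 2.84 ± 0.29 and 2.15 ± 0.24 over eWAT (edgeR adjusted p = 0.0166, 0.0149 and 0.0156). The gene called lower was Adrb3, the adrenergic receptor of adipocytes, at 85.3 ± 1.63 CPM in BAT and 163 ± 12.3 CPM in eWAT. In the unblocked edgeR fit, Ucp1 was the single gene of the list called between BAT and iWAT, and 0 were called between iWAT and eWAT. With the replicate block 16 were called higher and 1 lower in the BAT and eWAT contrast, beside 10.9% and 12.8% of tested genes. It called 13 higher in BAT than in iWAT, beside 4.55%. Between iWAT and eWAT it called 6 higher and 1 lower, beside 1.66% and 3.14%. Between BAT and iWAT DESeq2 called 9 higher, beside 1.53%, and the fit with no filter 10, beside 1.41%. Both called 5 higher and 1 lower between iWAT and eWAT. The shares there were 0.963% and 1.6% in DESeq2, and 1.15% and 1.99% with no filter. The count of 10 became 2 without BAT replicate 2 or eWAT replicate 1, 1 without eWAT replicate 2, 6 without iWAT replicate 1 and 5 without iWAT replicate 2. Against iWAT, Ucp1 was called without BAT replicate 1 and lost when any other library was left out, and the Adrb3 call was lost in all 6 of these fits.

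The genes listed for white adipocytes had the opposite order between BAT and eWAT. Of 11 listed genes 10 were tested, and the other, Lep, had at most 2 counts in a library. BAT was called lower than eWAT for 7 and higher for 0, beside 3.75% and 2.71% of tested genes. The 7 include the developmental regulators Wt1, Tcf21, Hoxc8 and Hoxc9, and Wt1 is also among the mesothelial markers. Whether the order reflects the depot of origin or white adipocyte identity was not tested. The median log2 difference was -2.67 over the 9 genes with a usable value. Retn, the hormone resistin, fell by 4.08 ± 0.30 and the homeobox gene Hoxc8 by 2.43 ± 0.24 (SE, log2; edgeR adjusted p = 0.00903 and 0.0147). Against iWAT, 3 were called lower, beside 0.895% of tested genes: Retn, Hoxc9 and Hoxc10. Hoxc10 had 0 counts in both BAT libraries, 0 and 2 in eWAT, and 90 and 71 in iWAT. Its BAT level was at least 48.5-fold lower than that of iWAT. With the replicate block 8 were called lower in BAT than in each white depot, beside 12.8% of tested genes against eWAT and 5.89% against iWAT. It called 4 lower and 1 higher in iWAT than in eWAT, beside 3.14% and 1.66%. DESeq2 called 8 lower against eWAT, beside 6.57%, and 5 against iWAT, beside 2.82%. The count of 7 became 4 without BAT replicate 1, 1 without BAT replicate 2, 2 without eWAT replicate 1, 3 without eWAT replicate 2, 4 without iWAT replicate 1 and 3 without iWAT replicate 2. The 3 calls against iWAT became 2 without either eWAT library and 0 without any other library.

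Regulators of the somite and muscle lineage, from which brown fat precursors arise in the embryo, were mostly undetected or did not pass the test. Myf5, a marker of that origin, had 1 and 3 counts in BAT and 0 in the 4 white libraries, and Myod1 had 1 count in all libraries together. Of 22 listed genes 13 were tested, and BAT was called higher than eWAT for 1 and lower for 2, beside 2.71% and 3.75% of tested genes. With the replicate block the counts were 4 and 3, beside 10.9% and 12.8%. It called 4 lower in BAT than in iWAT, beside 5.89%, and 2 higher and 1 lower in iWAT than in eWAT, beside 1.66% and 3.14%. Tbx15, a T-box factor, rose by 4.45 ± 0.60 (SE, log2; edgeR adjusted p = 0.0217), from 1.94 ± 2.08 CPM in eWAT to 40.4 ± 11.2 CPM in BAT, and stood at 81.0 ± 7.21 CPM in iWAT (SD, n = 2). The genes called lower were the growth factor receptors Pdgfra and Pdgfrb, and Pdgfra was also called lower in BAT than in iWAT. Pdgfra is also among the preadipocyte markers. Without BAT replicate 2 none of the unblocked calls held, Tbx15 was also lost without iWAT replicate 2, and the 2 lower genes became 0 without either eWAT library and 1 without either iWAT library. The Pdgfra call against iWAT was also lost without either iWAT library.

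**Figure D4:**
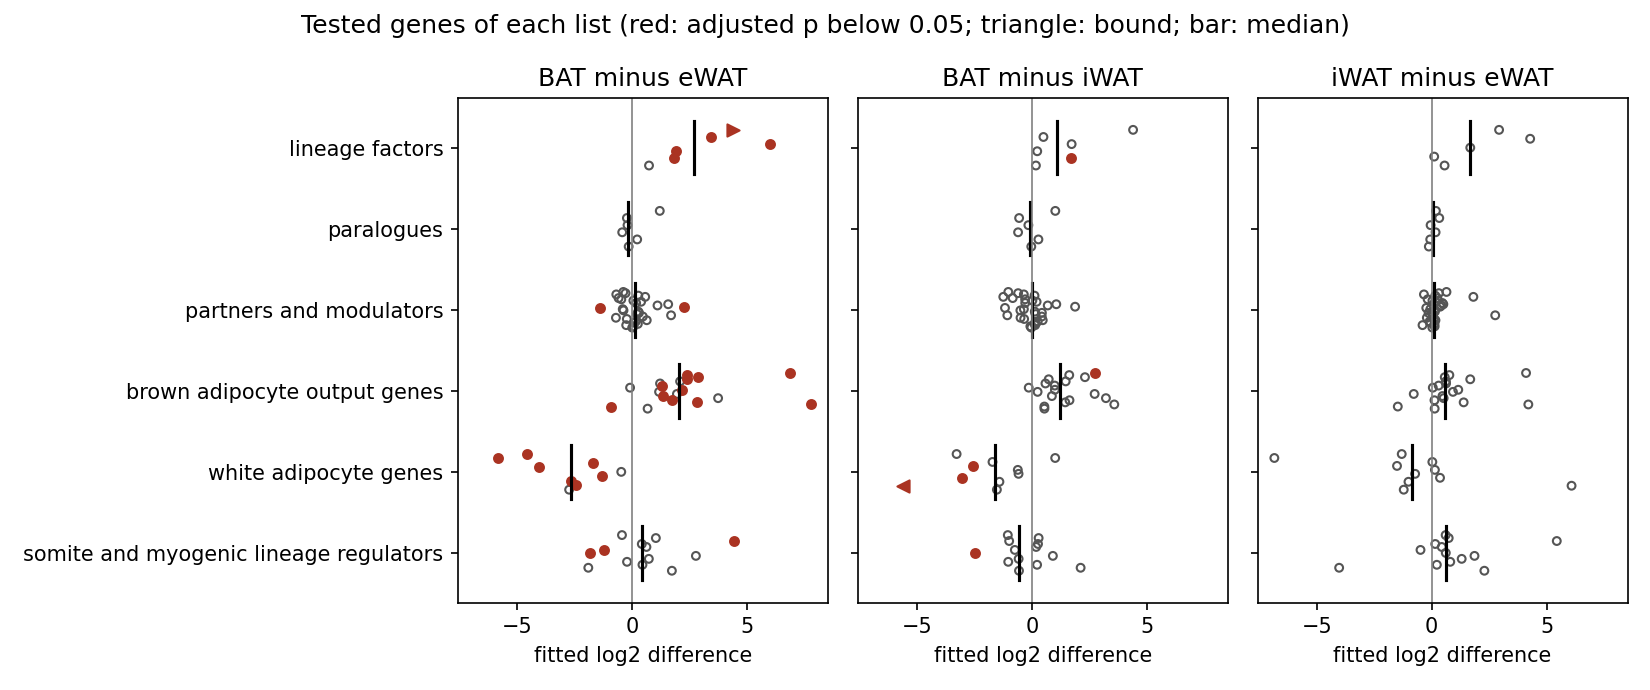
Fitted log2 differences (horizontal axes) of the tested genes of each list in the 3 contrasts, red where the edgeR adjusted p was below 0.05, with bars at the median and triangles at the bound for genes with 0 counts in a depot. Between BAT and eWAT the lineage factors (median 2.67) and brown output genes (2.02) lie to the right, the white genes (-2.67) to the left, and the paralogues (-0.18) and partners (0.12) near 0. Genes with 0 counts in 1 depot and at most 3 in the other are not drawn.

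The genes whose log2 CPM was most like that of each factor over the 6 libraries were found by Pearson's r among at least 9380 tested genes with a mean of at least 10 CPM in some depot. The libraries fall into 3 depots, so r mainly compares depot levels, and it is a description. For Zic1 these were Sucla2 (r = 0.998), Mtx2 and Pus3, and for Lhx8 Sccpdh (0.9988), Nudt7 and Mrps22. Sucla2 encodes a subunit of succinyl-CoA ligase and Mtx2 a mitochondrial import protein. Ebf2 was most like Vdac2 (0.9991), a channel of the mitochondrial outer membrane, then Itih5 and Txndc12. Ebf1 was most like Zkscan5 (0.9906), Zbtb10 and Pgm2, Ebf3 like Ttf1 (0.9936), Deptor and Phf10, and Prdm16 like Vta1 (0.9917), Fam114a2 and Zfp870. With a prior count of 0.5 in place of 2, 0 of the 3 genes of Zic1 and 1 of the 3 of Lhx8 were the same, so the lists of these low-count genes rest on that choice.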

How the data were processed

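RNA was sequenced from 6 libraries, 2 for each of BAT, eWAT and iWAT, named by the labels' depot and replicate number. The deposited table holds, for each gene, the authors' read counts as whole numbers, with no normalization applied, per the file headers. STAR and the build mm9 are named in the submitters' processing notes, and the counting program is not given in the sources used here. A further table deposited by the authors holds log2 fold changes, a likelihood-ratio score and p-values for each pair of depots, used here only where named. Its log2 values are signed as the second-named depot minus the first, per the file headers.

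Counts were fitted in edgeR 4.0.16 (R 4.3.3, limma 3.58.1) with TMM factors and filterByExpr by depot, which kept 11732 of 20295 genes and needed about 2.52 CPM in 2 libraries. The quasi-likelihood F test (two-sided) was run on 1 fit of all libraries with depot as the only term, adjusted by Benjamini-Hochberg over all tested genes, and called at 0.05. SE is the absolute log2 difference over the square root of F. Residual degrees of freedom were 3 and prior ones 3.34, at a common biological coefficient of variation of 0.251. The test was tested on simulated data. Intervals and bounds from counts cover counting error only. Depths of 2889038 to 4807449 counts put a limit of 3 counts at 0.634 to 1.15 CPM.

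The labels give the depots the same replicate numbers but not what a number marks. Deviations of same-numbered libraries from their depot means correlated at 0.412 (BAT and eWAT), 0.448 (BAT and iWAT) and 0.556 (iWAT and eWAT). With 2 libraries per depot, a source of variation common to the depots can give such correlations under any numbering, with signs set by the numbers. These values therefore cannot decide whether numbers pair the libraries. The main fit held no such pairing, and a block by number was fitted as an alternative. Blocked values stand beside the calls of the 6 factors, the list counts and the named neighbours that they change. DESeq2 1.42.0, limma voom, no filter, scaling by adipocyte markers, fits of 2 depots alone and leaving out each library were alternatives. Named genes were the 6 factors, the 3 genes most like each, up to 4 genes per list and contrast by smallest adjusted p, the neighbours, and paralogues with at least 1 CPM in a depot, of which some are not reported here by name. Further genes were named after their values were seen: Sox10, S100b, Myf5, Myod1, Zfp516, Ppargc1a, Lep, Ly6a and Dlk1. The members and lists were chosen with earlier results of these data known. All 172 list symbols were matched. Promoters were read from RefSeq windows. Python 3.11.15 with matplotlib 3.10.9 drew the figures.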

Additional observations from a re-analysis of the deposited data

How the results depend on the processing

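Over 13 alternatives, 182 of 233 recomputed differences of the 6 factors kept their direction and their side of the threshold, 38 fell short of it, 11 passed it and 2 turned sign: Ebf1 between BAT and iWAT ran from -0.019 (without BAT replicate 2) to 0.35, and Ebf2 between iWAT and eWAT from -0.082 (without eWAT replicate 1) to 0.33, when 1 library was left out. Leaving out 1 library at a time, 0 to 5 of the 6 were called between BAT and eWAT and 0 in both other contrasts. Between BAT and eWAT, 3 were called when scaled by adipocyte markers (Zic1, Lhx8 and Ebf2), 1 with the 2 depots alone in the fit (Lhx8), 4 by limma voom, and 5 by DESeq2 and with no filter. Between BAT and iWAT, 2 were called by DESeq2 and with no filter, and 0 when scaled by adipocyte markers, by limma voom, or with the 2 depots alone. Between iWAT and eWAT, 1 was called by DESeq2 and 3 with no filter. The replicate block called 6, 3 and 2 in these contrasts, and beyond the calls given beside the results it changed no other call of the 6. Over all genes, 318 were called higher and 440 lower between BAT and eWAT, against 1276 and 1504 with the replicate block, 599 and 771 by DESeq2, 769 and 1168 with no filter, 61 and 119 when scaled by adipocyte markers, and 40 and 116 with the 2 depots alone. The cause was not tested. Zic1 between iWAT and eWAT was not testable with those 2 depots alone. Values under the limit of 3 counts, 0.634 to 1.15 CPM by library, cannot be told from 0, and ratios against 1 to 3 counts rest on their counting intervals.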
